A study of Mus musculus with 60 samples.

Results

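The mitochondrial carrier family Slc25 was followed here in the brain of mice that lack paraoxonase 2 (PON2) and of their wild-type littermates. Its members were taken as every gene of the count table whose mouse symbol is Slc25a followed by digits, with 1 gene that is not reported left out, which gave 41 genes of 20423 in the table. The reference annotation holds 46 such genes, and 5 of them (Slc25a2, Slc25a31, Slc25a41, Slc25a48 and Slc25a54) had no row in the table. The members lay on 18 chromosomes, with 4 on the X chromosome (Slc25a5, Slc25a14, Slc25a43 and Slc25a53).

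The study measured RNA in 60 libraries of cerebral cortex, striatum and cerebellum, 20 per region, from female and male mice on a C57BL/6J background that were killed at 3 to 4 months of age after behavioural tests. Each of the 12 groups of region, sex and genotype held 5 libraries, so that 10 wild-type and 10 PON2-deficient libraries stood against each other in a region. PON2-deficient mice carried the defect on both alleles, and both genotypes were bred from crosses of heterozygous parents. Paraoxonase 2 is a lactonase of intracellular membranes, mitochondria included, that is known for limiting oxidative stress.

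Carriers of this family sit almost all in the inner mitochondrial membrane, where they exchange nucleotides, phosphate, amino acids, carboxylic acids, cofactors and metals between the cytosol and the matrix. ADP/ATP and phosphate carriers feed oxidative phosphorylation, and the aspartate and glutamate carriers and the oxoglutarate carrier connect cytosolic NADH and transmitter glutamate to the matrix. In brain, glutamate carriers are known to differ between neurons and astrocytes, and several members related to uncoupling proteins are known as brain carriers. The uncoupling proteins themselves have Ucp symbols and were kept in a separate list.

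Library totals ran from 26.1 to 28.1 M expected counts. Pon2 lay between 39.2 and 58.9 CPM (counts-per-million, with library sizes scaled by trimmed mean of M values) in the 30 wild-type libraries and between 0.457 and 6.91 CPM in the 30 PON2-deficient ones, with log2 changes of -4.01 in cortex, -3.74 in striatum and -5.82 in cerebellum. Marker genes of cortical, striatal and cerebellar neurons were each highest in the region that the labels name. PON2-deficient male striatum library 5 stood apart from the others: the mean of its deposited precision weights was 0.0527 of the striatal median, and its deviations from the region's mean had a slope on transcript length (both in log2) of -0.237, against -0.074 to 0.035 in the other striatal libraries. For 14 members it lay above the other 4 libraries of its group, and for 17 it lay below. Slc25a4, for example, read 815 CPM in that library against 440 to 491 CPM in the other 4. Striatal genotype values of the members named below are given with and without it. Smaller differences in this slope went with genotype in female striatum: 0.022 to 0.034 in PON2-deficient libraries and -0.010 to 0.017 in wild-type ones. In every other region and sex the genotypes overlapped in slope. The medians in male cortex were 0.012 in PON2-deficient and -0.025 in wild-type libraries. Labels do not state whether libraries with the same number came from the same mouse. The main fits treated libraries as independent, so p-values measure the spread between these libraries.

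Wild-type libraries were first compared between genes, per kilobase of annotated exon. The ADP/ATP carriers led the family in every region. Slc25a4, the adenine nucleotide translocator known from heart, muscle and brain, had a median of 220 CPM per kilobase in cortex, 206 in striatum and 220 in cerebellum. Slc25a5, its more widely expressed relative, had 112, 147 and 150 CPM per kilobase in the same order. Together these 2 genes made up 39.4% of the summed family level in cortex, 41.2% in striatum and 43.2% in cerebellum. Next in cortex came Slc25a23, a calcium-regulated ATP-Mg/phosphate carrier, and Slc25a3, the phosphate carrier. Slc25a23 stood at 89.8 CPM per kilobase in cortex and Slc25a3 at 59.2. The 8 members with the highest levels held 72.3% of the family's sum in cortex, 72.0% in striatum and 72.3% in cerebellum, and 6 genes were among those 8 in all 3 regions. In cortex the list went on with Slc25a11, the oxoglutarate-malate carrier, at 37.4 CPM per kilobase. It was followed by the glutamate carriers Slc25a18 and Slc25a22 at 33.6 and 31.4 CPM per kilobase, whose library ranges overlapped (28.9 to 39.3 and 26.95 to 33.9). Slc25a44, a carrier of branched-chain amino acids, completed the 8 at 26.8 CPM per kilobase. Slc25a12, the calcium-regulated aspartate-glutamate carrier known as aralar, reached the first 8 in striatum with 22.9 CPM per kilobase.

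**Figure D1:**
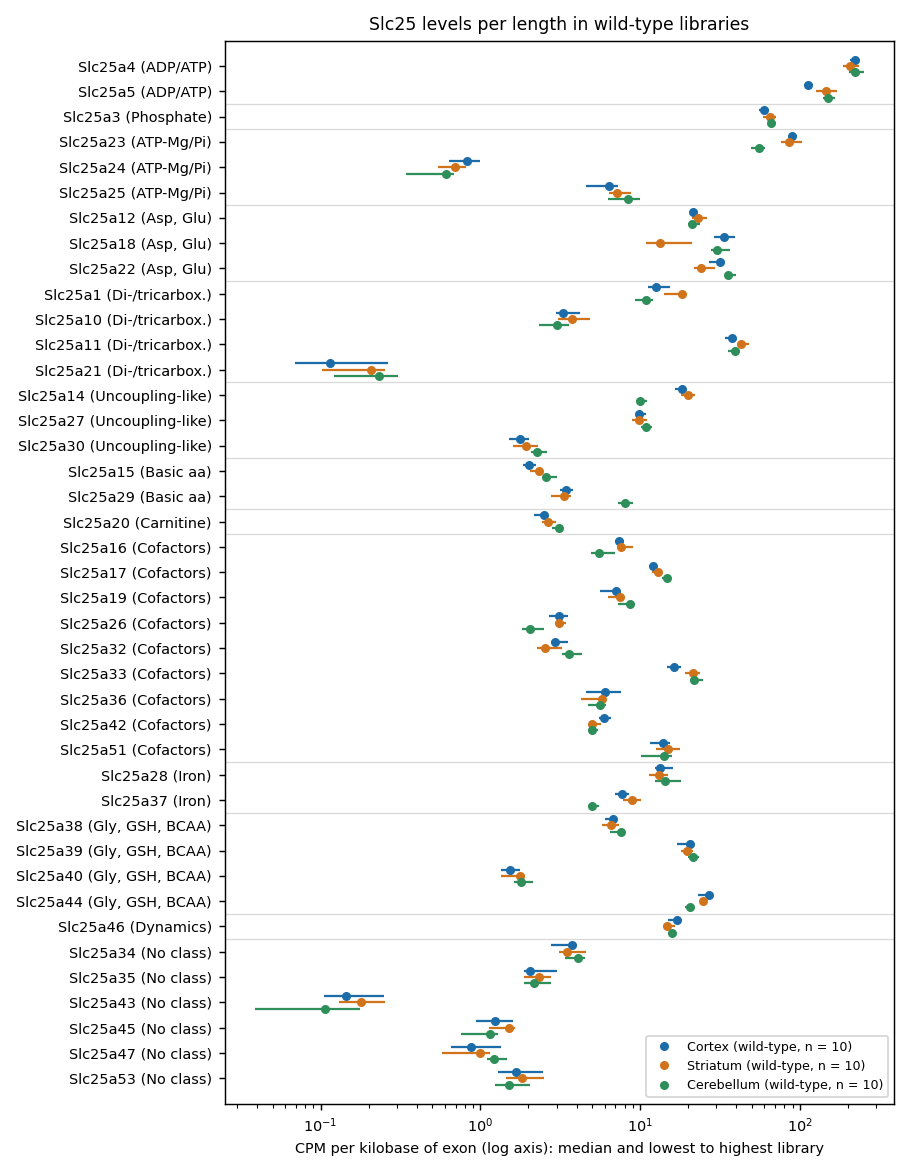
Level of each of the 41 members per kilobase of exon in wild-type libraries, on a log axis, by region. Points are medians of 10 libraries and lines run from the lowest to the highest library, with members ordered by substrate class. Slc25a4 led in all 3 regions with 206 to 220 CPM per kilobase, while Slc25a21, Slc25a24 and Slc25a43 lay under 1.

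At the other end, Slc25a21 (oxodicarboxylate carrier), Slc25a24 (an ATP-Mg/phosphate carrier) and Slc25a43 (no substrate class assigned here) lay below 1 CPM per kilobase in every region. Slc25a43 was near the floor of the assay, with 2.05 to 12.1 expected counts per wild-type library. The median member had 7.03 CPM per kilobase in cortex, 7.44 in striatum and 8.09 in cerebellum. With the longest transcript in place of all exons as the length, 7 of the 8 highest members remained in each region. Several members share their locus with another annotated gene on the opposite strand, among them Slc25a11 with Rnf167, Slc25a18 with Atp6v1e1, Slc25a23 with Crb3 and Slc25a25 with Naif1. Whether the libraries kept strand is not given in the sources used here, so reads of such pairs may be shared.

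Differences between regions were then tested within wild-type mice. Most were small. Cerebellum against cortex gave 19 members called higher and 11 called lower of 41 tested, at an adjusted p under 0.05. Of all 19854 genes tested, 37.2% were called higher and 36.8% lower, so the family's share of calls (73.2%) was near that background. Against striatum, cerebellum had 15 members higher (37.4% of all genes) and 14 lower (36.8% of all genes). Striatum against cortex gave 14 members higher and 7 lower, beside 22.7% and 24% of all genes. A difference of at least 2-fold was rare in the family. It was met by 1 member between striatum and cortex (7.3% of all genes), 1 between cerebellum and cortex (24.4% of all genes) and 2 between cerebellum and striatum (25.8% of all genes). The median absolute log2 difference of the members was 0.12, 0.26 and 0.21 in these 3 comparisons, beside 0.21, 0.45 and 0.46 over all genes tested. In these bulk samples, fewer cells of a type and less RNA per cell cannot be told apart.

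**Figure D2:**
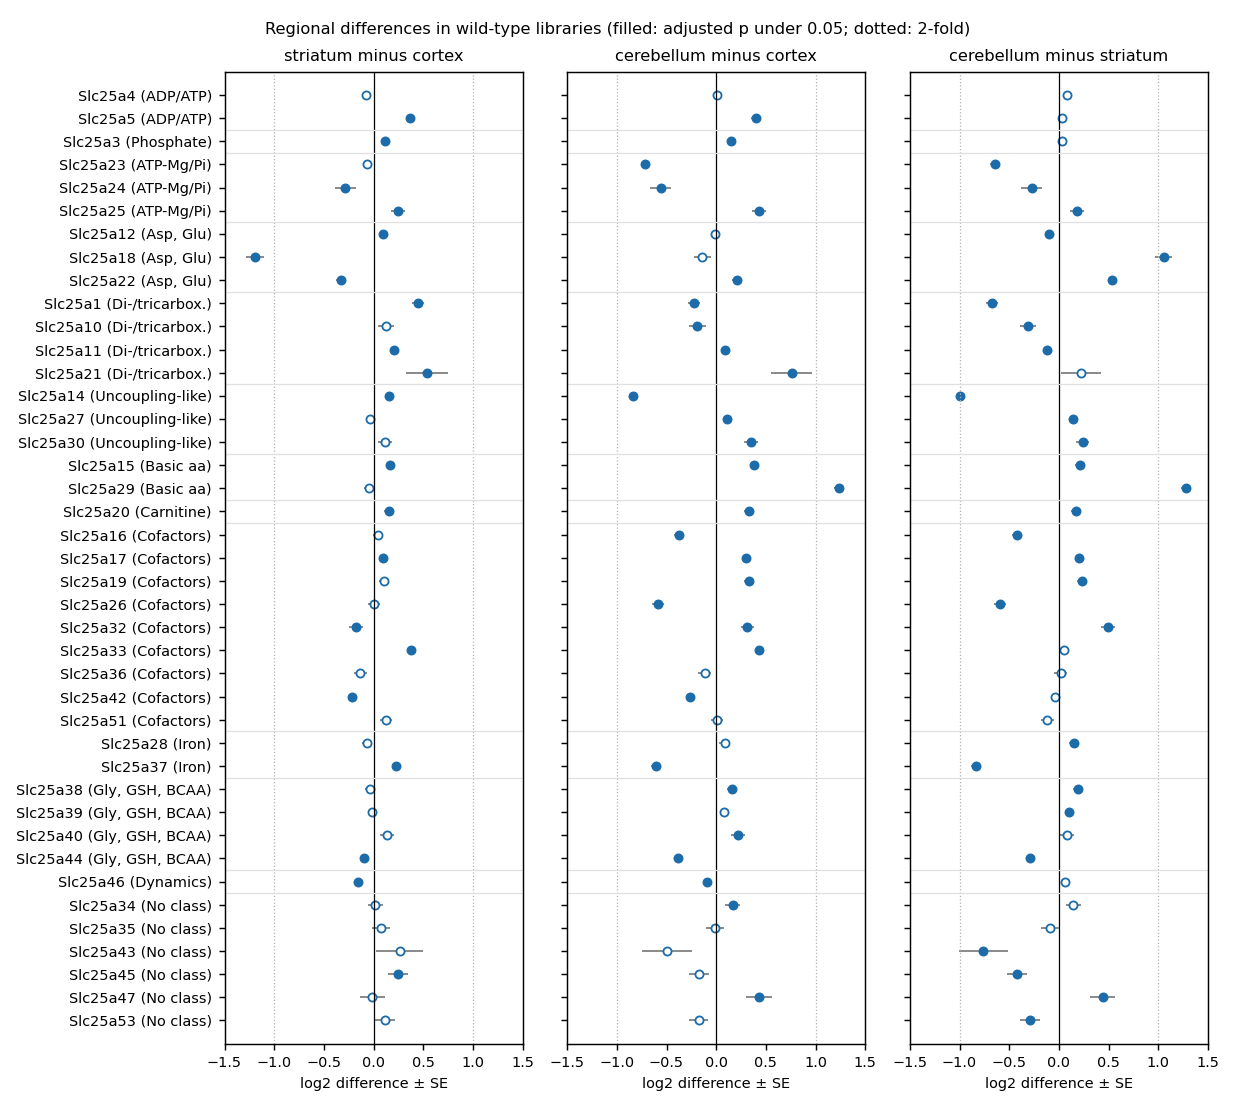
Log2 difference between regions in wild-type libraries for each of the 41 members, with bars for the standard error (SE) from edgeR. Filled points passed an adjusted p of 0.05 and dotted lines mark a 2-fold difference. Slc25a18 passes the 2-fold line where striatum is compared and Slc25a29 where cerebellum is compared, while Slc25a4 stays beside 0 in all 3 panels.

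Adenine nucleotide and phosphate carriers differed little. Slc25a4 was called in none of the 3 comparisons, with means of 521 ± 20.6 CPM in cortex, 494 ± 38.2 in striatum and 523 ± 29.4 in cerebellum (SD, n = 10). Its 3 log2 differences lay between -0.08 and 0.08, with SEs of 0.0392, at adjusted p of 0.944 (cerebellum to cortex), 0.110 (striatum to cortex) and 0.0654 (cerebellum to striatum). Slc25a5 was lower in cortex. Cortical libraries ran from 174 to 198 CPM (median 185), striatal ones from 208 to 280 (median 241) and cerebellar ones from 229 to 272 (median 247). No cortical library reached the lowest striatal or cerebellar one, while striatum and cerebellum overlapped. The log2 differences of Slc25a5 from cortex were 0.37 for striatum (SE 0.0409, adjusted p = 9.35e-09) and 0.40 for cerebellum (SE 0.0409, adjusted p = 5.70e-10). Slc25a3 followed the same order on a smaller scale, 0.12 above cortex in striatum (adjusted p = 0.00407) and 0.15 above it in cerebellum (adjusted p = 0.000176).

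The 3 ATP-Mg/phosphate carriers did not move together. Slc25a23, by far the most abundant of them, ran from 452 to 511 CPM in cortex, from 402 to 548 in striatum and from 262 to 321 in cerebellum. All cerebellar libraries lay below all others. Its log2 difference was -0.71 against cortex (SE 0.0433, adjusted p = 2.92e-15) and -0.65 against striatum (SE 0.0432, adjusted p = 3.17e-14). Slc25a24, at 1.95 to 2.86 CPM on average, was also lowest in cerebellum (log2 -0.56 against cortex, adjusted p = 2.74e-05). Slc25a25 was highest in cerebellum, with a mean of 65.3 ± 7.54 CPM (SD, n = 10) against 57.5 ± 5.85 in striatum and 48.4 ± 6.69 in cortex. Its libraries overlapped between all regions, and its log2 difference between cerebellum and cortex was 0.43 (SE 0.0721, adjusted p = 4.57e-06).

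Carriers of aspartate and glutamate held the largest striatal difference of the family. Slc25a18 is the mitochondrial glutamate carrier known from astrocytes. It ran from 20.8 to 40.6 CPM in striatum (median 25.5), from 55.3 to 75.1 in cortex (median 64.1) and from 52.9 to 69.7 in cerebellum (median 57.5). Every striatal library lay below every cortical and cerebellar one, while the latter overlapped with each other. The log2 difference was -1.19 between striatum and cortex (SE 0.0889, adjusted p = 2.34e-12) and 1.05 between cerebellum and striatum (SE 0.0887, adjusted p = 6.49e-12). Between cerebellum and cortex it was -0.14 (SE 0.0864, adjusted p = 0.145). Slc25a18 was also among the more variable members in striatum, with a coefficient of variation of 24.7% over the 10 wild-type libraries against 8.22% in cortex and 8.82% in cerebellum.

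Astrocyte markers (Gja1, Aqp4, Aldh1l1, Slc1a3, Gfap and Sox9) moved beside it. Of the 6, 5 were called lower in striatum than in cortex (24% of all genes), with a median log2 difference of -0.23. All 6 were called higher in cerebellum than in striatum (37.4% of all genes), with a median of 0.51. Their summed level ran from 882 to 1035 CPM in wild-type cortex, from 693 to 880 in striatum and from 1594 to 1807 in cerebellum, and none was at 0. Between cerebellum and cortex, 2 of the 6 were called higher and 1 lower, with a median log2 difference of 0.09, so the higher sum in cerebellum was not shared by most of them. Their part in the Slc25a18 difference was not tested.

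Slc25a22, the second glutamate carrier, whose human counterpart is mutated in early epilepsies, was also lowest in striatum. It ran from 131 to 176 CPM in striatum, from 162 to 203 in cortex and from 203 to 238 in cerebellum, so that striatum and cerebellum did not overlap. The log2 difference was -0.33 between striatum and cortex (SE 0.0470, adjusted p = 1.03e-06) and 0.54 between cerebellum and striatum (SE 0.0470, adjusted p = 1.62e-11). Unlike Slc25a18, Slc25a22 was also called higher in cerebellum than in cortex (0.21, SE 0.0469, adjusted p = 0.000194). Slc25a12 differed by no more than 0.10 in any comparison: it was called higher in striatum than in cortex (0.09, adjusted p = 0.0449) and lower in cerebellum than in striatum (-0.10, adjusted p = 0.0174).

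Of the 4 carriers of di- and tricarboxylates, 3 were called higher in striatum than in cortex (22.7% of all genes). Lower in cerebellum than in striatum were 3 (36.8% of all genes). Slc25a1, the citrate carrier, ran from 30.7 to 42.7 CPM in striatum (median 39.8), from 24.2 to 33.3 in cortex (median 27.2) and from 19.97 to 26.0 in cerebellum (median 23.6). Striatum lay above cerebellum in every library and overlapped with cortex at its lower end. Its log2 difference was 0.45 between striatum and cortex (SE 0.0599, adjusted p = 2.87e-07) and -0.67 between cerebellum and striatum (SE 0.0602, adjusted p = 2.65e-11). Slc25a11 was 0.21 higher in striatum than in cortex (adjusted p = 7.08e-06). Slc25a21, under 2 CPM in every wild-type library, was lowest in cortex (log2 0.76 for cerebellum against cortex, SE 0.208, adjusted p = 0.00176), and its libraries overlapped between regions.

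Among the 3 carriers related to uncoupling proteins, Slc25a14 stood out from its relatives. It ran from 22.1 to 26.0 CPM in cerebellum (median 23.7), from 39.1 to 45.2 in cortex (median 43.2) and from 42.6 to 51.8 in striatum (median 47.2). No cerebellar library came near the others. The log2 difference was -0.84 against cortex (SE 0.0408, adjusted p = 1.12e-17) and -0.99 against striatum (SE 0.0408, adjusted p = 1.65e-19). Slc25a27 and Slc25a30 went the other way, 0.11 and 0.35 higher in cerebellum than in cortex (adjusted p = 0.0131 and 4.27e-05).

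Basic amino acid carriers held the largest cerebellar rise. Slc25a29, which carries arginine, lysine and related amino acids, ran from 18.9 to 23.4 CPM in cerebellum (median 21.1), from 8.21 to 9.93 in cortex (median 8.96) and from 7.25 to 9.61 in striatum (median 8.74). Cerebellar libraries did not overlap with any other, and cortex and striatum overlapped. The log2 difference was 1.24 against cortex (SE 0.0481, adjusted p = 4.87e-20) and 1.28 against striatum (SE 0.0482, adjusted p = 2.02e-20). Slc25a15, the ornithine carrier, was 0.38 higher in cerebellum than in cortex (adjusted p = 1.47e-08). Slc25a20, the carnitine-acylcarnitine carrier, was 0.33 higher (adjusted p = 8.75e-07).

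Slc25a29 and Slc25a47 are neighbours on chromosome 12 and are read in opposite directions from starts that lie close together. In the annotation (GENCODE M21, GRCm38), Slc25a29 spans 108825873 to 108835883 on the minus strand and Slc25a47 spans 108836046 to 108856815 on the plus strand, which leaves 162 bases between them. The first transcripts of Slc25a47 there are annotated as processed transcripts, and its coding transcripts start at 108851129 and 108851139. Slc25a47 was much lower than its neighbour, with means of 3.72 ± 0.395 CPM in cerebellum, 2.75 ± 0.620 in cortex and 2.74 ± 0.589 in striatum (SD, n = 10). It too was higher in cerebellum, by 0.43 against cortex (SE 0.127, adjusted p = 0.00326) and 0.44 against striatum (SE 0.127, adjusted p = 0.00266), with overlapping libraries. The bases between both genes are shown because both were higher in cerebellum; they are written 5′ to 3′ on the minus strand (chr12:108835884-108836045, RefSeq, GRCm38.p6), towards the start of Slc25a29, with CCAAT and its reverse complement ATTGG in capitals.

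between Slc25a29 and Slc25a47: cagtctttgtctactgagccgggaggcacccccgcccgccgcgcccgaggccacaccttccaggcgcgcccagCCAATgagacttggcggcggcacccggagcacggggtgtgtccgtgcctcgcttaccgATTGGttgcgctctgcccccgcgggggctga

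This stretch holds 18 CG dinucleotides and 2 matches to CCAAT, 1 on each strand. For the members with the strongest fall in a region, the bases just before the first annotated exon are shown, with CG in capitals. Slc25a18 (chr6:120773518-120773577, plus strand) was lowest in striatum and Slc25a14 (chrX:48623198-48623412, plus strand) was lowest in cerebellum.

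Slc25a18: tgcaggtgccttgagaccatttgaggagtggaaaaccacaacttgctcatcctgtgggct
Slc25a14: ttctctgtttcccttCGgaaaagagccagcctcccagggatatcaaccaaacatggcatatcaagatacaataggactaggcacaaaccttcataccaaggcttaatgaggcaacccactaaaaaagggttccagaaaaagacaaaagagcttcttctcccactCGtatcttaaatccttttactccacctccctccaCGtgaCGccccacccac

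The 60 bases of Slc25a18 hold no CG and the 215 bases of Slc25a14 hold 4. Their full windows of 250 bases before the RefSeq start hold 2 for Slc25a18 and 4 for Slc25a14. Over the 250 bases before the RefSeq start, 32 of the 41 members could be matched, with a median of 14 CG dinucleotides, and 17491 protein-coding genes had a median of 10. CCAAT on either strand was present in 15 of the 32 windows (46.9%), against 36.3% of all. Such letter matches describe the sequence only.

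Cofactor and nucleotide carriers split. Of 9 tested, 4 were called higher and 3 lower in cerebellum than in cortex (37.2% and 36.8% of all genes). Slc25a33, a pyrimidine nucleotide carrier, was lowest in cortex: cortical libraries ran from 27.7 to 33.9 CPM, striatal ones from 36.0 to 44.8 and cerebellar ones from 38.6 to 46.9. Cortex did not overlap with either. The log2 differences from cortex were 0.38 for striatum (SE 0.0410, adjusted p = 6.55e-09) and 0.43 for cerebellum (SE 0.0409, adjusted p = 1.18e-10). Slc25a26, which brings S-adenosylmethionine into the matrix, was lowest in cerebellum, at 8.75 to 11.98 CPM against 12.96 to 17.1 in cortex and 14.1 to 16.6 in striatum, again without overlap. Its log2 difference was -0.59 against each (SE 0.0592, adjusted p = 3.64e-10 and 2.76e-10). Slc25a32, linked to folate and FAD transport, was 0.49 higher in cerebellum than in striatum (SE 0.0697, adjusted p = 2.50e-07). Slc25a42, a coenzyme A carrier, was highest in cortex, with a log2 difference of -0.22 for striatum minus cortex (SE 0.0389, adjusted p = 2.23e-05).

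The 2 mitoferrins, which import iron, differed in their regional pattern. Slc25a37 ran from 28.6 to 33.3 CPM in cerebellum, from 42.2 to 51.0 in cortex and from 46.8 to 60.7 in striatum. Cerebellum stood below both without overlap. Its log2 difference was -0.61 against cortex (SE 0.0445, adjusted p = 2.67e-13) and -0.84 against striatum (SE 0.0445, adjusted p = 1.10e-16). Slc25a28 was called only in cerebellum against striatum, where it was 0.15 higher (SE 0.0527, adjusted p = 0.0107), and differed by less in the other comparisons. Slc25a44 was lower in cerebellum than in cortex by a log2 difference of -0.38 (SE 0.0330, adjusted p = 1.13e-11), whereas the glutathione carrier Slc25a39 was called only against striatum (0.10, adjusted p = 0.0252).

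**Figure D3:**
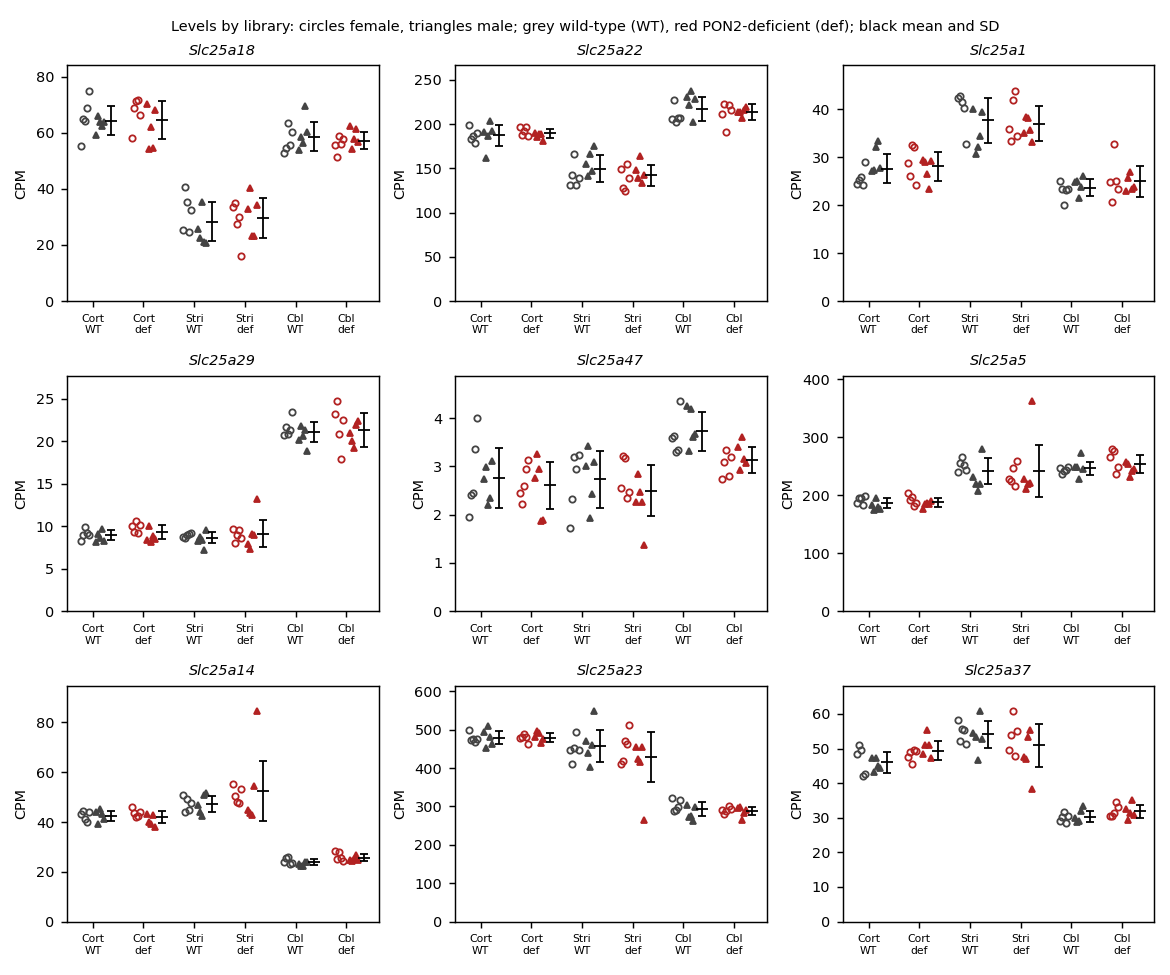
Levels (CPM) of 9 members in all 60 libraries by region and genotype, with circles for females, triangles for males and bars for the mean and SD of 10 libraries. Striatal libraries are lowest for Slc25a18, cerebellar ones are highest for Slc25a29 and lowest for Slc25a14 and Slc25a37, and also for Slc25a23 except that PON2-deficient male striatum library 5 (265 CPM) lies among them. That library also lies apart for Slc25a5 (362 CPM) and Slc25a14 (84.5 CPM).

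Across the 3 comparisons, 12 members were called in all and 4 in none (Slc25a4, Slc25a35, Slc25a36 and Slc25a51). Cerebellum was called above both other regions for 12 members and below both for 9. Striatum was called above both for 6 and below both for 3, and cortex above both for 4 and below both for 9. Over all genes, 46.7% were called between striatum and cortex, 74.0% between cerebellum and cortex and 74.1% between cerebellum and striatum. How many of all genes show each pattern was not counted, so these counts are not read as a trait of the family. Other cell types moved between the same regions. Cerebellar granule neuron markers summed to 4193 to 4843 CPM in wild-type cerebellum and to no more than 109 elsewhere. Choroid plexus markers summed to 547 to 2155 CPM in cerebellum, 17.7 to 466 in cortex and 27.9 to 1172 in striatum. No marker of these 2 lists was at 0 in a group, and their part in the family's differences was not tested.

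The regional pattern was also read in PON2-deficient mice, whose libraries are separate from the wild-type ones. There, 18 of 41 members were called between striatum and cortex (45.5% of all genes), 28 between cerebellum and cortex (70.9%) and 27 between cerebellum and striatum (71.7%). Of the 14 and 7 members called higher and lower in wild-type striatum than in cortex, 9 and 4 were called in the same direction. For cerebellum against cortex these were 17 of 19 and 9 of 11, and for cerebellum against striatum 12 of 15 and 12 of 14. No member was called in opposite directions. How many calls of all genes recurred in this way was not counted, so these counts are not read as a trait of the family. Slc25a18 differed by -1.12 between striatum and cortex (SE 0.104, adjusted p = 4.11e-10), and Slc25a29 by 1.199 between cerebellum and cortex (SE 0.0788, adjusted p = 3.52e-14). Without male striatum library 5 the counts were 20, 29 and 36, beside 51.6%, 75.4% and 75.0% of all genes, and these 2 differences were -1.14 and 1.199.

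Genotype was the study's main question: whether the loss of PON2 changes transcripts in each region. No member passed the threshold of 0.05 in any of the 15 genotype comparisons by edgeR's quasi-likelihood test with Benjamini-Hochberg adjustment. Over both sexes, 0 of 40 members were called in cortex (0.0316% of all genes), 0 of 41 in striatum (0.0105% of all genes) and 0 of 40 in cerebellum (0.0321% of all genes). Slc25a43 was removed by the filter on low counts in cortex and cerebellum. At an unadjusted p under 0.05, the counts were 6 in cortex (11.4% of all genes), 3 in striatum (4.94% of all genes) and 7 in cerebellum (11.1% of all genes). Without male library 5, 5 members in striatum were under it (8.68% of all genes). Calls were as rare over the whole table, so the absence of a called member is near the background. The median absolute log2 change of the members was 0.03, 0.06 and 0.05, beside 0.06, 0.07 and 0.07 over all genes. No tested member changed by 1.5-fold or more over both sexes in any region.

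**Figure D4:**
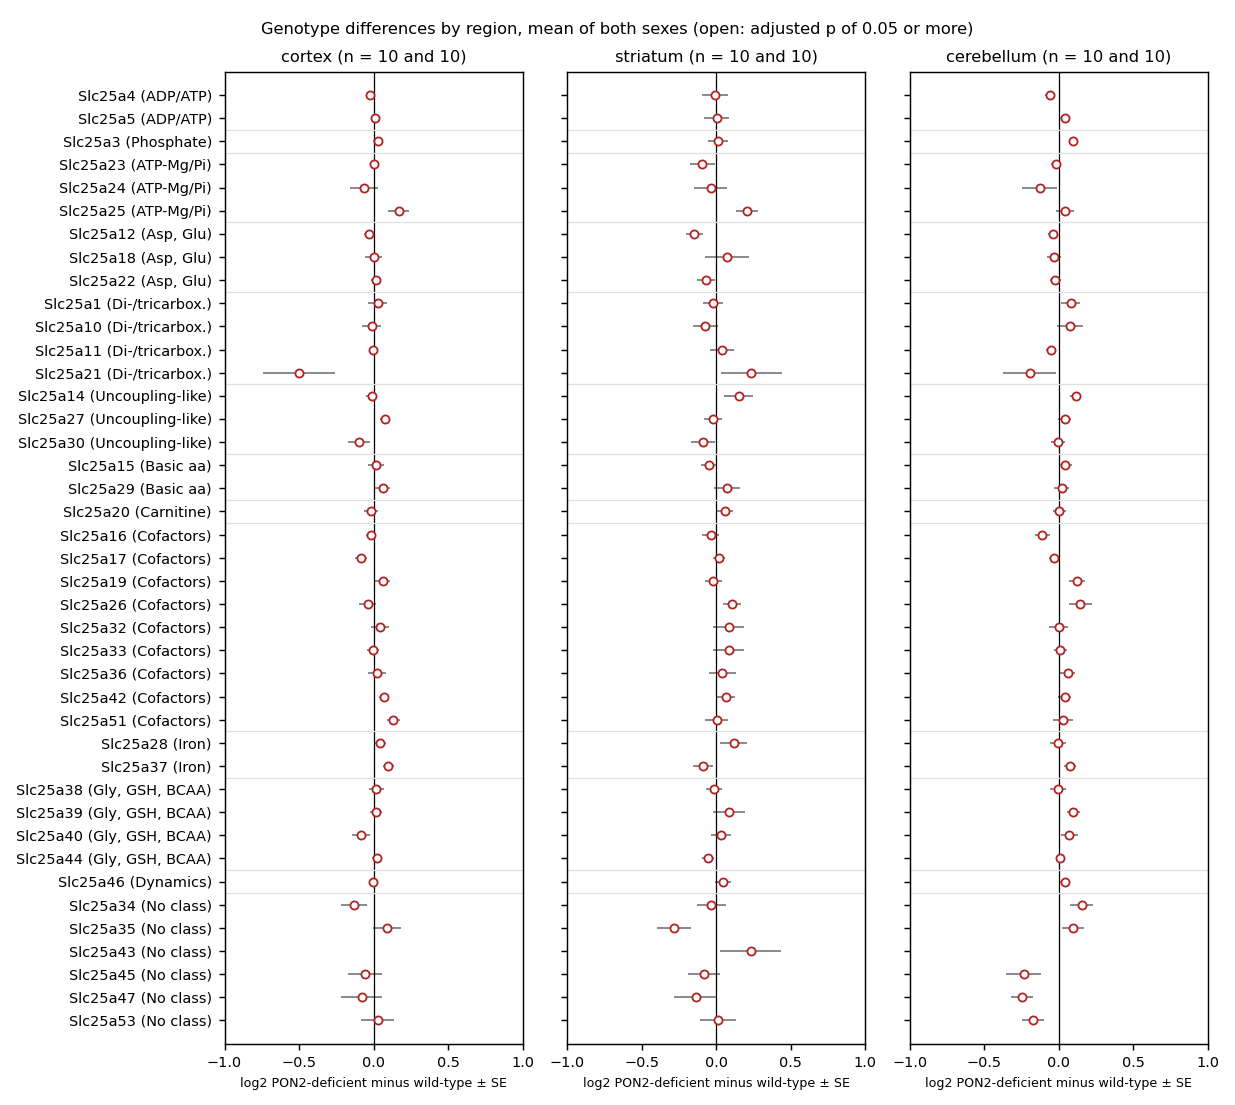
Log2 change between PON2-deficient and wild-type libraries for each member tested, by region, as the mean of both sexes with SE bars (10 libraries of each genotype). No point passed an adjusted p of 0.05. Most changes lie near 0, and the widest bars belong to the lowest expressed members, Slc25a21 in cortex (log2 -0.50, SE 0.240) among them.

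In cortex, the member with the smallest p was Slc25a51, which brings NAD+ into mitochondria. Wild-type libraries ran from 63.1 to 84.3 CPM (median 76.9) and PON2-deficient ones from 74.1 to 94.2 (median 82.3). The groups overlapped between 74.1 and 84.3 CPM. Its log2 change was 0.13 (SE 0.0419, adjusted p = 0.202). For the mitoferrin Slc25a37 the ranges were 42.2 to 51.0 and 45.5 to 55.3 CPM, and the log2 change was 0.10 (SE 0.0378, adjusted p = 0.312). Slc25a25 ran from 36.2 to 56.8 CPM in wild-type and from 48.2 to 64.8 in PON2-deficient libraries, with a log2 change of 0.17 (SE 0.0714, adjusted p = 0.368). Slc25a27 had ranges of 37.8 to 42.7 and 39.3 to 44.3 CPM and a log2 change of 0.08 (SE 0.0337, adjusted p = 0.381). All 4 had overlapping groups and a higher mean in PON2-deficient cortex.

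In striatum, Slc25a25 had the smallest p. It ran from 50.4 to 68.9 CPM in wild-type libraries (median 56.7) and from 52.4 to 81.5 in PON2-deficient ones (median 67.0). The log2 change was 0.21 (SE 0.0762, adjusted p = 0.844), and without male library 5 it was 0.24 (SE 0.0668, adjusted p = 0.333). Slc25a35, with no substrate class assigned here, had ranges of 6.87 to 10.1 and 4.44 to 9.77 CPM and a log2 change of -0.28 (SE 0.113, adjusted p = 0.928). Its lowest value belonged to library 5, without which the change was -0.23 (SE 0.100, adjusted p = 0.546). The aspartate-glutamate carrier Slc25a12 had ranges of 154 to 192 and 119 to 172 CPM and a log2 change of -0.15 (SE 0.0589, adjusted p = 0.928). Its lowest value, 119 CPM, belonged to library 5, without which the change was -0.11 (SE 0.0455, adjusted p = 0.526). Slc25a26 had a log2 change of 0.10 (SE 0.0594, adjusted p = 0.995), with ranges of 14.1 to 16.6 and 14.1 to 18.8 CPM, and of 0.07 without library 5 (SE 0.0530, adjusted p = 0.706). The median coefficient of variation of the members was 14.8% over PON2-deficient striatal libraries and 8.20% without library 5, against 7.76% in wild-type striatum.

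In cerebellum, the phosphate carrier Slc25a3 ran from 352 to 392 CPM in wild-type libraries (median 368) and from 375 to 414 in PON2-deficient ones (median 397). Its groups overlapped between 375 and 392 CPM. The log2 change was 0.09 (SE 0.0266, adjusted p = 0.166). Slc25a47 had ranges of 3.30 to 4.36 and 2.75 to 3.60 CPM and a log2 change of -0.25 (SE 0.0757, adjusted p = 0.188). For its neighbour Slc25a29, means were 21.1 ± 1.17 and 21.4 ± 2.02 CPM (SD, n = 10). Slc25a14 had ranges of 22.1 to 26.0 and 24.2 to 28.4 CPM and a log2 change of 0.11 (SE 0.0376, adjusted p = 0.248). Slc25a39 had ranges of 55.1 to 64.1 and 56.1 to 69.6 CPM and a log2 change of 0.10 (SE 0.0408, adjusted p = 0.368). Groups overlapped for all 4 of these members.

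**Figure D5:**
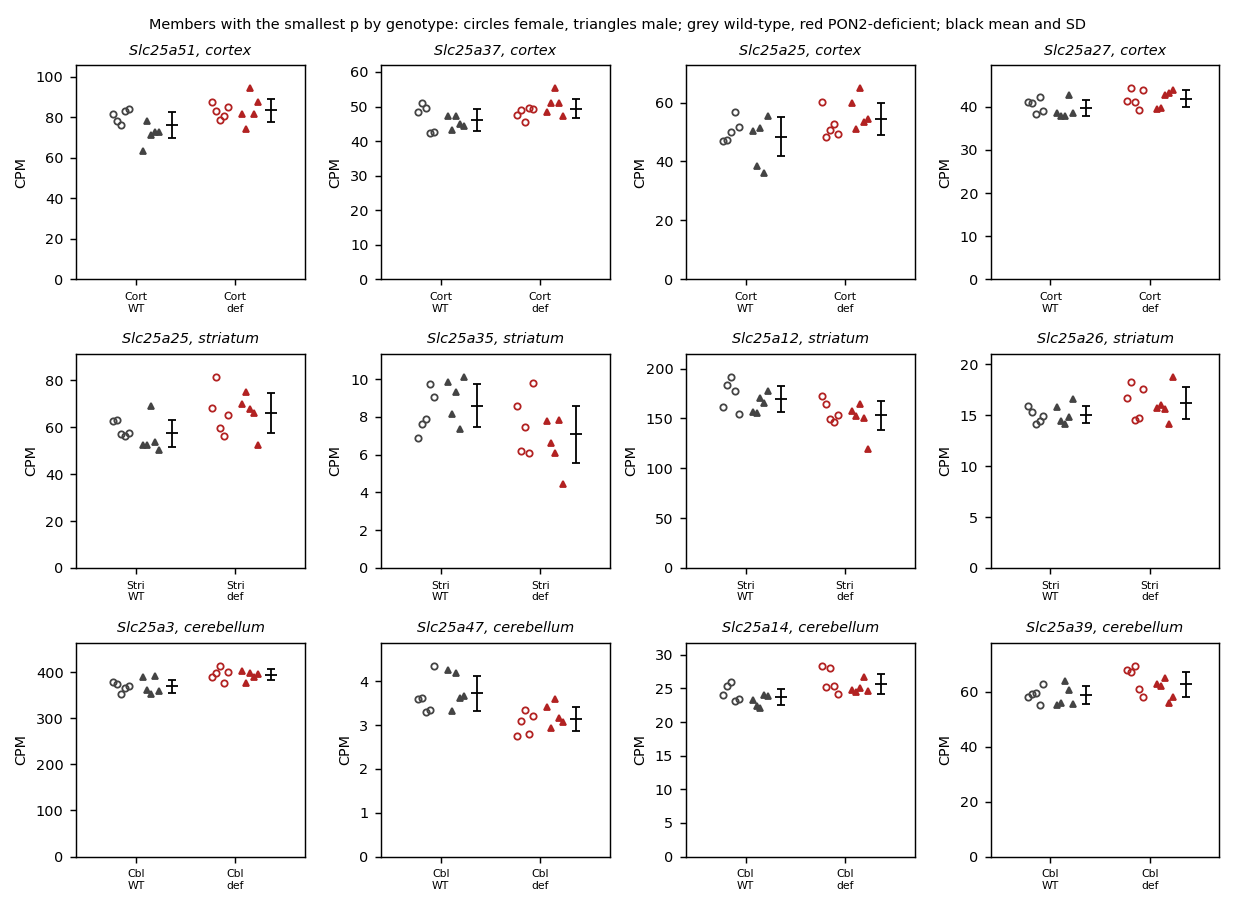
Levels (CPM) by library for the 4 members with the smallest unadjusted p by genotype in each region. Circles are females, triangles males, and bars give the mean and SD of 10 libraries. PON2-deficient and wild-type libraries overlap in all 12 panels, for example between 375 and 392 CPM for Slc25a3 in cerebellum.

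Within 1 sex, and between sexes, the count of members called was also 0. For females these counts stood beside a background of 0.00527% for cortex, 0.00527% for striatum and 0.00534% for cerebellum, with 1, 0 and 6 members at an unadjusted p under 0.05 (6.60%, 4.08% and 5.16% of all genes). Without male library 5, which enters the same fit, the striatal count of females was 3 (7.72% of all genes). For males the background was 0.148% in cortex, 0.00527% in striatum and 0.016% in cerebellum, and 3, 2 and 4 members reached an unadjusted p under 0.05 (14.0%, 5.96% and 10.6% of all genes). The genotype effect was called as differing between the sexes for 0% of all genes in each region, and 1 member in cortex, 0 in striatum and 2 in cerebellum reached an unadjusted p under 0.05 (9.56%, 4.31% and 4.73% of all genes). Nor did the genotype effect of a member differ between regions at the threshold: 0 of 41 were called for striatum against cortex (0% of all genes), cerebellum against cortex (0.0147%) and cerebellum against striatum (0.00981%), with 4, 1 and 2 at an unadjusted p under 0.05 (6.30%, 4.15% and 5.97% of all genes). A second tool, limma on the deposited values, called no member in these 15 comparisons. DESeq2 called 1 member in each of 2 comparisons: Slc25a51 in cortex of males (log2 0.23, adjusted p = 0.0180) and Slc25a3 in cerebellum over both sexes (log2 0.10, adjusted p = 0.0214). Over all genes, DESeq2 called 250 in cerebellum over both sexes, where edgeR tested 18710 genes. For cortex of males, the alternative fits, DESeq2 among them, called 14 to 433 genes, and the count of DESeq2 alone is not given here. The share of all genes that DESeq2 called is not given either, so its 2 member calls are not set against a background.

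The ADP/ATP carriers Slc25a4 and Slc25a5 had log2 changes of -0.02 and 0.01 in cortex, -0.01 and 0.00 in striatum and -0.06 and 0.04 in cerebellum. The striatal values turned on library 5, in which both genes were highest. Without it they were -0.11 for Slc25a4 (SE 0.0416, adjusted p = 0.499) and -0.08 for Slc25a5 (SE 0.0499, adjusted p = 0.658).

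Genes that work beside the family were read from fixed lists. By genotype, 0 of 42 such genes were called in cortex, 0 of 42 in striatum and 0 of 43 in cerebellum (0.0316%, 0.0105% and 0.0321% of all genes). At an unadjusted p under 0.05 there were 3, 0 and 2, beside 11.4%, 4.94% and 11.1% of all genes. Between wild-type regions, of 13 genes of carrier import, 4 were called higher and 1 lower in striatum than in cortex (22.7% and 24% of all genes). Tomm70a, the outer membrane receptor that hands carrier precursors to the import machinery, differed most, by 1.15 (SE 0.0525, adjusted p = 5.49e-17), and by -1.60 between cerebellum and striatum (SE 0.0532, adjusted p = 8.80e-22). Of 4 tested relatives with the same fold but another symbol, 2 were called higher and 2 lower in cerebellum than in cortex. Ucp2 was 1.32 higher there (SE 0.0897, adjusted p = 4.56e-14). Mtch1, an outer membrane protein of this fold, differed by -1.22 between cerebellum and striatum (SE 0.0416, adjusted p = 1.66e-21). Among 18 other transporters of the inner membrane, 10 were called higher and 5 lower in cerebellum than in cortex, and Mcub, a subunit of the calcium uniporter, differed most (-1.12, SE 0.196, adjusted p = 8.55e-06). Of the 4 enzymes of the malate-aspartate shuttle, which work with Slc25a11 and Slc25a12, 2 were called higher and 2 lower in cerebellum than in cortex. None of these 4 differed by 2-fold. Over all genes, 37.2% were called higher and 36.8% lower in cerebellum than in cortex. The lists were not tested against this background, so their counts are not read as a trait of the lists.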

How the data were processed

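RNA of 60 mouse brain libraries was analysed from a deposited table of expected counts per gene, which the authors' notes tie to Salmon, and from deposited log2 values with a precision weight per gene and library. Per the submitters' processing notes, Salmon, edgeR and limma were used. Their versions are not stated there, and neither build nor annotation is given in the sources used here. The log2 values that were deposited are log2 CPM of voom: recomputed from the counts with 0.5 added and TMM-scaled library sizes, they deviated by at most 5.33e-14. The deposited weights are a score that the authors made with voom, and served as weights in limma and as a measure of each library.

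Expected counts were rounded and fitted with edgeR 4.0.16 in R 4.3.3 (TMM scaling, filterByExpr on the groups, quasi-likelihood F test, 2-sided, 1 mean per group). P-values were adjusted over all genes tested by Benjamini and Hochberg, with a threshold of 0.05. Genotype comparisons used the 20 libraries of a region, regional comparisons the 30 libraries of a genotype, and genotype by region all 60. CPM values use TMM-scaled library sizes over all libraries, and fold changes are on the log2 scale of the fit. Totals of 26.1 to 28.1 M put 1 CPM at about 26 to 28 counts. Levels per kilobase use the union of exons of GENCODE M21 (GRCm38), to which 20403 of 20423 gene IDs matched. The wild-type regional comparisons share libraries pairwise, and so do those of PON2-deficient mice.

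The members, the substrate classes, the lists and the tests were chosen with earlier results of these data known. Members named are those called by genotype, the 4 with the smallest p by genotype in each region, the 5 largest regional differences in each direction among those called and with a mean of at least 1 CPM, the 8 highest per kilobase, the carriers of ADP/ATP and those like uncoupling proteins, and any removed by a filter. Other members, such as those below or above 1 CPM per kilobase, and those with a small or no difference, were named after their values were seen. 1 family member is not reported here.

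Alternatives were median ratio size factors, no filter on low counts, DESeq2 1.42.0, limma 3.58.1 on the deposited values and weights, the replicate number as a block, all 60 libraries in 1 fit for the wild-type contrasts, each library left out in turn, and, added after seeing the data, the slope on transcript length as a covariate and the fits without PON2-deficient male striatum library 5. Same-numbered libraries correlated in their deviations from group means by -0.139 to 0.495 between genotypes and by -0.0861 to 0.249 between regions. In simulated counts with 50 genes changed by 1.2-fold, 38% were recovered in cortex, 8% in striatum and 46% in cerebellum. Of 50 changed by 1.5-fold in the same counts, 72%, 68% and 68% were recovered, with 18972, 18962 and 18710 genes fitted. The same counts also held genes with larger changes, which eases the adjusted threshold. Recovery may therefore be lower where few genes change.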

Additional observations from a re-analysis of the deposited data

Results flagged for a closer look

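In groups of 5 libraries, 8 of 130 tested groups of named members had 1 library set far apart from the other 4, where chance gives about 1 in 20 (6.5 groups). Not every group of every named member was among the 130. PON2-deficient male striatum library 5 is not among the flags, although Slc25a4 read 815 CPM there against 440 to 491 in the other 4. The count of flags is therefore not a rate of outlying libraries over the data. In cortex, Slc25a23 read 499 CPM in wild-type female library 1 against 469 to 476 in the others, Slc25a27 read 42.7 CPM in wild-type male library 4 against 37.8 to 38.5, and Slc25a42 read 39.3 CPM in that same library against 34.9 to 36.1. In striatum, Slc25a1 read 32.7 CPM in wild-type female library 5 against 40.3 to 42.7, and Slc25a25 read 68.9 CPM in wild-type male library 3 against 50.4 to 53.7. In cerebellum, Slc25a22 read 227 CPM in wild-type female library 2 against 203 to 207, Slc25a32 read 26.2 CPM in wild-type male library 2 against 20.6 to 21.9, and Slc25a14 read 26.7 CPM in PON2-deficient male library 4 against 24.5 to 25.0. Leaving out each of the wild-type libraries changed no regional call of the same member.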

How the results depend on the processing

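Recomputed counts of called members stayed within 1.5 times the reported count in 469 cases and moved in 2: DESeq2 called 1 member by genotype in cortex of males and 1 in cerebellum over both sexes, where edgeR called 0. No paired design is stated. Every same-numbered correlation passed 0.1 in 2 of 18 sets (genotypes in male striatum, and cortex and cerebellum of wild-type females). Between regions, 2 to 5 of the 5 libraries of a set correlated best with their own number, and between genotypes 0 to 2. With unrelated numbers, about 1 of 5 would match best by chance, and every set between regions lay above this. Same-numbered libraries of different regions may thus come from the same mouse, which the labels do not state. The main fits did not use a pairing and treated the libraries as independent, which limits the p-values between regions. Every library correlated best with its own number in 1 set. The fit with that number as a replicate block called 0 members in every genotype comparison and 19, 30 and 29 members in the 3 wild-type regional comparisons (striatum to cortex, cerebellum to cortex, cerebellum to striatum). Leaving out each library in turn gave 17 to 22, 28 to 31 and 26 to 31 members in these 3 comparisons and 0 in the genotype ones. For named members, 1050 regional recomputations kept direction and call. Another 30 kept the direction and lost the call, all between striatum and cortex: Slc25a45 in 14 fits, Slc25a32 in 11 and Slc25a24 in 5, so these calls depended on the setting or on 1 library. Slc25a14 passed 2-fold between cerebellum and striatum in some fits, with log2 differences from -1.02 to -0.97. Over all genes, calls by genotype depended on the tool: DESeq2 gave 242 in cortex, 7 in striatum and 250 in cerebellum where edgeR gave 6, 2 and 6, the length slope gave 153 in cortex and the block 30, and leaving out 1 library gave 1 to 26 in cortex and 1 to 49 in cerebellum. Depth limits Slc25a43 and Slc25a21, which have few counts per library.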
